A study of Mus musculus with 64 samples.

Results

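The cytochrome P450 genes are taken here as the genes whose symbol is Cyp followed by a digit, without Cyp7b1, Cyp51, Cyp4a10 and Cyp4a14. By this rule the array carries 98 probes for 72 P450 genes, of 25697 probes for 16590 genes in all, and 54 of the genes have 1 probe, 11 have 2, 6 have 3 and 1 has 4. The mice were males of 21 weeks, with 4 mice in each of 4 groups, and each mouse gave 1 array of brain, liver, spleen and thymus, so that 64 arrays come from 16 mice. In cohort 1, Hmgn2-/- homozygotes stand beside wild types that carry the strain label C57BL/6. In cohort 2, Hmgn1-/-n2-/- double knockouts, which lack both genes, stand beside wild types that carry the strain label C57BL/6J. Each mutant group carries the strain label of its own wild types, both mutants lack Hmgn2, and the labels name no Cre or promoter that would limit the loss to a cell type. Both genes code for nucleosome-binding proteins of the nucleus. The question put to the P450 genes is whether their RNA differs when a knockout is set beside wild types from the same cohort, first in liver and then, for reference, in the other organs.

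P450 enzymes hold a heme group and put 1 oxygen atom into small molecules, with electrons passed on by the reductase Por to the members of the endoplasmic reticulum and by Fdxr and Fdx1 to those of the mitochondria, such as Cyp27a1. Families 1 to 3 oxidise drugs and other foreign compounds, family 4 hydroxylates fatty acids and eicosanoids, and single members make or break down bile acids, steroid hormones, vitamin D and retinoic acid. The liver is their main site, where several are made mostly by the hepatocytes around the central vein, some differ between male and female mice, and the receptors CAR, PXR, AhR and PPAR alpha set many of them. All signals below are log2 values of background-corrected, normalized probe intensity within an organ. Signals of different probes cannot be ranked against each other, since each probe has its own brightness, and the sequence each probe matches was not used here, so that near-identical neighbours such as Cyp2a4 and Cyp2a5 or Cyp4a12a and Cyp4a12b may share signal.

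An array detected 9550 to 10745 probes in the liver (detection p under 0.01), of which 49 to 57 were P450 probes, against 12 to 18 P450 probes in the brain, 18 to 21 in the spleen and 14 to 44 in the thymus. Hmgn2 separated the liver groups as labelled, at 8.65 to 9.31 on the 8 wild-type arrays and 4.26 to 4.87 on the 8 mutant arrays, where it was not well above background. The Hmgn1 probe stayed bright in the livers of the double knockouts, at 10.73, 10.67, 10.72 and 10.77, and since no source used here gives its place relative to the deletion, it checks nothing about that label. In the spleen, Hmgn2 went against the label on 2 arrays, reading 6.33 in replicate 4 of the wild types of cohort 2 and 12.13 in replicate 1 of the double knockouts. In the liver, 7 hepatocyte genes on 9 probes had mean log2 levels of 10.46 to 10.82 per array, with overlapping ranges in all 4 groups.

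Promoters of 5 P450 genes are shown as examples of those that hold the letters of a liver receptor's binding form, so that all 5 have it by choice: Cyp2c37 and Cyp2c50, which varied together in the liver, and Cyp2c70, Cyp3a11 and Cyp8b1, which were detected on every liver array and hardly anywhere else. Of the 72 genes, 55 matched a promoter in RefSeq by symbol (build GRCm38.p6, from 250 bases before the start to 50 after it). The letters TGNACTTTG, which read CAAAGTNCA on the other strand and are known as a form bound by the liver receptor HNF4 alpha, were searched on both strands. They occurred in 13 of 62 P450 promoters, or 21%, and in 464 of 32851 promoters of all genes, or 1.41%. All but those of Cyp26a1, Cyp2d26 and Cyp8b1 belong to close relatives, Cyp2c37, Cyp2c40, Cyp2c50, Cyp2c65, Cyp2c67, Cyp2c70, Cyp3a11, Cyp3a16, Cyp3a41a and Cyp3a44. The 13 are thus not independent cases, and the 21% does not describe the P450 genes at large. By gene, the letters occurred in 7 of 27 P450 genes with a probe highest in liver (25.9%) and in 6 of 28 others (21.4%). The promoters of Cyp2e1, Cyp2d9, Cyp2b10, Cyp2a5, Cyp4f14, Cyp4f15, Cyp4f18 and Cyp20a1, genes also described below, do not hold these letters in this window. Each sequence runs 5′ to 3′ on the strand of its gene, and the capitals mark the match. Cyp2c37 (chr19:39992174-39992473, plus strand) has it 63 bases before the start, Cyp2c50 (chr19:40089429-40089728, plus strand) 61 bases and Cyp2c70 (chr19:40187237-40187536, minus strand) 64 bases before it. Cyp3a11 (chr5:145879805-145880104, minus strand) has it 109 bases before the start, and Cyp8b1 (chr9:121916256-121916555, minus strand) has it at 242 and 67 bases. A match describes these letters and is not a measured binding site.
Cyp2c37: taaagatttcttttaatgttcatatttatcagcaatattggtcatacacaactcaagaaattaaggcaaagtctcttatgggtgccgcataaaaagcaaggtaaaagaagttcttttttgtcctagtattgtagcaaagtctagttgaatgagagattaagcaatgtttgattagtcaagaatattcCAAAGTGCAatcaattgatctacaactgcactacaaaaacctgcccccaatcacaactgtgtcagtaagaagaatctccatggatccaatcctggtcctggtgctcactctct
Cyp2c50: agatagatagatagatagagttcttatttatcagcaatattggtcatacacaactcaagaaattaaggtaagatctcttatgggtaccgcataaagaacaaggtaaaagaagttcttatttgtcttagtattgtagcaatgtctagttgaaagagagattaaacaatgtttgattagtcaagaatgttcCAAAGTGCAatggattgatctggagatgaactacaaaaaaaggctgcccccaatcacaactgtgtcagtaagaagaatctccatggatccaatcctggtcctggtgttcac
Cyp2c70: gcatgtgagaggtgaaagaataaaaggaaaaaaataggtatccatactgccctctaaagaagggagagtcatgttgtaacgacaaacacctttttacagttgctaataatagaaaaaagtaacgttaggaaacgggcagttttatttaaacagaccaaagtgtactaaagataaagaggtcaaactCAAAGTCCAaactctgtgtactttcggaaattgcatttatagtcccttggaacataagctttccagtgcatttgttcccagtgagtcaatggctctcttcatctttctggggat
Cyp3a11: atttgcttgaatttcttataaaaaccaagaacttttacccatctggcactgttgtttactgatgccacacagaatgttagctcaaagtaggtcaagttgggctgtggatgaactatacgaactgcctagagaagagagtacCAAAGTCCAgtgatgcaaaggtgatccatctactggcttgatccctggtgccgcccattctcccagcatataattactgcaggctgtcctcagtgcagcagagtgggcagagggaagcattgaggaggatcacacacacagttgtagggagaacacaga
Cyp8b1: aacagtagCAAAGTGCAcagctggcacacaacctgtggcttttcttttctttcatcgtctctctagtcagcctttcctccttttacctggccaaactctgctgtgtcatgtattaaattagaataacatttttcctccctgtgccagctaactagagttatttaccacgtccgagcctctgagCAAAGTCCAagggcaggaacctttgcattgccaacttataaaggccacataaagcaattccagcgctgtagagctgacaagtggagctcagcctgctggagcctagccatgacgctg

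In the liver, 46 of the 98 P450 probes were detected on all 16 arrays, 34 on none, and 55 probes of 41 genes were detected on at least 4 arrays and were tested together with all 10943 probes that met this filter. The other 9 probes lit up on 1 to 3 arrays. No probe of 23 genes was detected on any liver array: these are Cyp11a1, Cyp11b1, Cyp1a1, Cyp21a1, Cyp24a1, Cyp27b1, Cyp2b13, Cyp2b19, Cyp2c38, Cyp2c39, Cyp2c40, Cyp2c65, Cyp2d12, Cyp2d34, Cyp2j5, Cyp2j6, Cyp2j11, Cyp2j13, Cyp3a16, Cyp3a41a, Cyp3a44, Cyp46a1 and Cyp4x1. Cyp11b2, Cyp1b1, Cyp2b23, Cyp2b9, Cyp2g1, Cyp2r1, Cyp2s1 and Cyp4f39 were seen on 1 to 3 arrays only.

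No P450 probe in the liver was called in either mutant by limma's moderated test at an adjusted p under 0.05. Few probes of the array were called at all, 2 of 10943 in the Hmgn2 knockouts and 28 in the double knockouts. A count of 0 among 55 is thus near the share over all probes and does not set the P450 genes apart. Of 55 probes in the Hmgn2 knockouts, 0 were called, where 0.0183% of all tested probes were, and the smallest adjusted p was 1. In the double knockouts 0 of 55 were called, where 0.256% of all were, and the smallest adjusted p was 0.211. At an unadjusted p under 0.05 there were 5 P450 probes in the Hmgn2 knockouts (9.09%, against 3.86% of all probes) and 2 in the double knockouts (3.64%, against 8.3% of all). Direction was nearly even: in the Hmgn2 knockouts 30 probes were higher and 25 lower than in the wild types, with a median log2 difference of 0.037 over the P450 probes and 0.002 over all probes. The double knockouts had 27 higher and 28 lower, with a median of -0.02 against -0.01.

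For most members the interval of the difference was narrower than 1 log2 unit to either side. The 95% interval of the log2 difference lay within 1 on either side of 0 for 49 of the 55 probes in the Hmgn2 knockouts and for 52 in the double knockouts. It reached further for Cyp17a1, Cyp26a1, Cyp2b10, Cyp2c55, Cyp4a31 and Cyp7a1 in the Hmgn2 knockouts, and for Cyp26a1, Cyp4a31 and 1 of 3 Cyp3a13 probes in the double knockouts. The difference between the changes of both mutants was called for 0 of 55 probes (0.0183% of all), and at an unadjusted p under 0.05 for 2 (3.64%, against 5.99% of all). The mean of both changes was called for 0 of 55 (0.0366% of all), and at an unadjusted p under 0.05 for 6 (10.9%, against 6.14%).

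**Figure D1:**
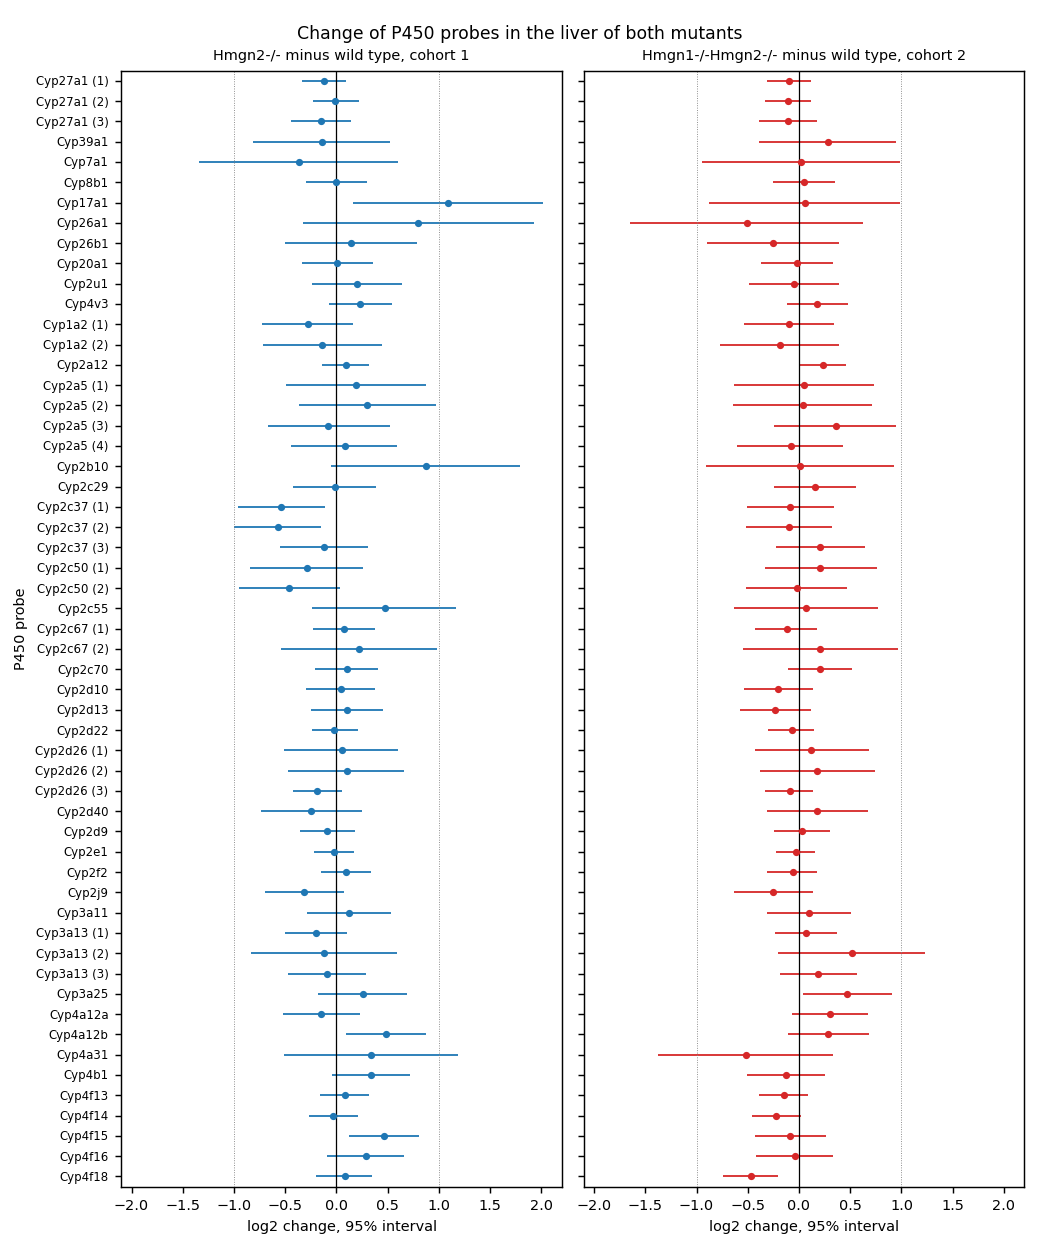
Log2 difference between a mutant and the wild types of its cohort for the 55 P450 probes tested in the liver, with 95% intervals from limma (4 mice a group; numbers in brackets tell apart probes of 1 gene; dotted lines at a log2 difference of 1 either way). The left panel shows the Hmgn2-/- mice, with the 2 bright Cyp2c37 probes on the low side and Cyp17a1 at 1.09 on the high side, and the right panel the Hmgn1-/-n2-/- mice, whose differences run from -0.52 to 0.52.

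None of the 6 bile acid and cholesterol probes was called in either mutant: 1 was higher and 5 lower in the Hmgn2 knockouts (median -0.13), and 3 were higher and 3 lower in the double knockouts (median -0.04). Cyp8b1, which makes cholic acid, read 13.05, 12.51, 12.61 and 12.76 in the wild types and 12.65, 12.93, 12.68 and 12.66 in the Hmgn2 knockouts of cohort 1. The second cohort gave 12.44, 12.65, 12.88 and 12.91 in the wild types and 12.65, 12.98, 12.86 and 12.57 in the double knockouts. The groups of each cohort overlapped, and the log2 differences were 0 ± 0.14 (adjusted p = 1) and 0.05 ± 0.14 (adjusted p = 0.942).

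Cyp7a1, the rate-limiting enzyme of bile acid synthesis, varied far more between mice of 1 group. It read 9.17, 9.77, 10.69 and 10.1 in the wild types and 8.82, 9.56, 10.47 and 9.4 in the Hmgn2 knockouts. The wild types of cohort 2 gave 10.25, 8.63, 8.71 and 9.78 and the double knockouts 9.62, 9.83, 9.95 and 8.04. High and low arrays lay in every group, and the differences of -0.37 ± 0.46 and 0.02 ± 0.46 were below the standard deviation within groups of 0.76. Cyp7a1 follows the day in mice, and the clock gene Dbp also varied, from 5.82 to 8.3 over the 16 arrays, with 5 of 14 clock probes higher and 9 lower in the Hmgn2 knockouts (median -0.09) and 4 higher and 10 lower in the double knockouts (median -0.08); the part of these values in Cyp7a1 was not tested.

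Cyp27a1, the mitochondrial sterol 27-hydroxylase, had 3 probes, and none differed by more than 0.15 in either mutant. The second of the 3 probes read 12.2, 12.27, 12.26 and 12.35 in the wild types and 12.41, 12.32, 12.16 and 12.16 in the Hmgn2 knockouts. Cohort 2 gave 12.29, 12.66, 12.4 and 12.4 in the wild types and 12.5, 12.24, 12.27 and 12.33 in the double knockouts. These 4 groups overlapped. Cyp39a1, which hydroxylates 24-hydroxycholesterol, was near background, with 4.98, 5.64, 6.01 and 6.15 in the wild types and 5.78, 4.85, 5.58 and 5.98 in the Hmgn2 knockouts of cohort 1. Cohort 2 gave 5.27, 5.18, 4.67 and 4.27 in the wild types and 5.32, 4.47, 5.81 and 4.9 in the double knockouts. Its mutants overlapped with their wild types, at -0.14 ± 0.32 and 0.28 ± 0.32.

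Of the steroid hormone enzymes only Cyp17a1, the 17-alpha-hydroxylase and lyase, passed the detection filter in the liver. It read 4.87, 5.35, 5.82 and 5.33 in the wild types of cohort 1 and 4.96, 5.72, 7.46 and 7.59 in the Hmgn2 knockouts. Arrays of cohort 2 gave 5.31, 5.35, 4.47 and 4.84 in the wild types and 4.79, 4.71, 5.45 and 5.26 in the double knockouts. Replicates 3 and 4 of the Hmgn2 knockouts stood above all other arrays, while replicates 1 and 2 lay within the range of the wild types. The difference in the Hmgn2 knockouts was 1.09 ± 0.44 (unadjusted p = 0.0249, adjusted p = 1), the largest log2 difference upward among the 55 probes, and 0.06 ± 0.44 in the double knockouts.

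Cyp26a1, which breaks down retinoic acid, was seen on 4 arrays. It read 4.53, 4.73, 4.78 and 4.55 in the wild types and 7.98, 4.49, 4.62 and 4.68 in the Hmgn2 knockouts of cohort 1. Cohort 2 gave 4.92, 5.28, 5.53 and 4.36 in the wild types and 4.62, 4.36, 4.32 and 4.74 in the double knockouts. Replicate 1 of the Hmgn2 knockouts alone was high. Its relative Cyp26b1 was highest on the same array, with 5.88, 4.69, 4.6 and 4.18 in the Hmgn2 knockouts and 4.59, 5, 4.99 and 4.21 in their wild types. In cohort 2 it had 4.82, 5.07, 5.04 and 4.32 in the wild types and 5.15, 4.29, 4.21 and 4.58 in the double knockouts. Cyp26a1 was not well above background on any array of the wild types of cohort 1 or of the double knockouts, so that the mean was at least 1.56-fold higher in the Hmgn2 knockouts, through that 1 array, and at least 1.05-fold lower in the double knockouts (adjusted p = 1 and 0.812). The vitamin D enzymes Cyp24a1, Cyp27b1 and Cyp2r1 did not pass the filter.

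Among the enzymes of families 1 to 3, 34 probes of 22 genes were tested. By sign, 16 were higher in the Hmgn2 knockouts and 18 lower, with a median of -0.01, in the double knockouts 20 were higher and 14 lower with a median of 0.04, and 0 were called in either. Cyp2e1, which oxidises ethanol and paracetamol, was the steadiest, at 14.2, 14.05, 13.94 and 14.12 in the wild types and 14.09, 14.03, 14.09 and 13.99 in the Hmgn2 knockouts of cohort 1. For cohort 2 the signals were 14.12, 13.99, 14.06 and 14.22 in the wild types and 14.06, 14.09, 14.06 and 14.05 in the double knockouts of cohort 2. All 16 arrays lay between 13.94 and 14.22, and the differences were -0.02 ± 0.091 and -0.03 ± 0.091.

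Cyp2c37 was the P450 gene with the smallest unadjusted p in the Hmgn2 knockouts. Like other Cyp2c enzymes it makes hydroxylated and epoxidised products of arachidonic acid, and its promoter is printed above. One bright probe read 13.01, 12.8, 12.63 and 12.93 in the wild types of cohort 1 and 13.02, 12.38, 11.72 and 11.95 in the Hmgn2 knockouts. In cohort 2 that probe read 12.7, 12.72, 12.76 and 12.99 in the wild types and 12.74, 12.76, 12.61 and 12.67 in the double knockouts. Replicates 2, 3 and 4 of the Hmgn2 knockouts lay below all 12 arrays of the other groups, while replicate 1 was the highest of all, so the groups overlapped. The difference was -0.57 ± 0.2 (95% interval -1 to -0.15, unadjusted p = 0.0104, adjusted p = 1) in the Hmgn2 knockouts and -0.1 ± 0.2 in the double knockouts. The other bright probe gave 13.04, 12.68, 12.48 and 12.89 in the wild types and 12.98, 12.35, 11.76 and 11.87 in the Hmgn2 knockouts, and 12.79, 12.76, 12.69 and 12.95 in the wild types and 12.7, 12.85, 12.68 and 12.59 in the double knockouts of cohort 2. Both probes placed the arrays of the Hmgn2 knockouts in the same order, and the difference of the other one was -0.54 ± 0.2 (unadjusted p = 0.0164). One more, dim probe was detected on 5 arrays and differed by -0.12 ± 0.2.

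Cyp2c50, a close relative on the same chromosome, showed the same arrays apart. Its bright probe read 12.77, 12.39, 12.1 and 12.38 in the wild types and 12.84, 12.12, 11.37 and 11.47 in the Hmgn2 knockouts. Cohort 2 gave 12.53, 12.49, 12.38 and 12.53 in the wild types and 12.38, 12.51, 12.51 and 12.45 in the double knockouts. Replicates 3 and 4 of the Hmgn2 knockouts were the lowest 2 of 16 and replicate 1 the highest, with a difference of -0.46 ± 0.23 (unadjusted p = 0.0666, adjusted p = 1). Nr1i3, the gene of the receptor CAR, read 8.66, 8.05, 7.92 and 8.4 in the wild types and 8.4, 8.55, 7.22 and 7.59 in the Hmgn2 knockouts. It was lowest in the same replicates 3 and 4, with a difference of -0.32 ± 0.24 (adjusted p = 1), and its part in the P450 values was not tested.

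**Figure D2:**
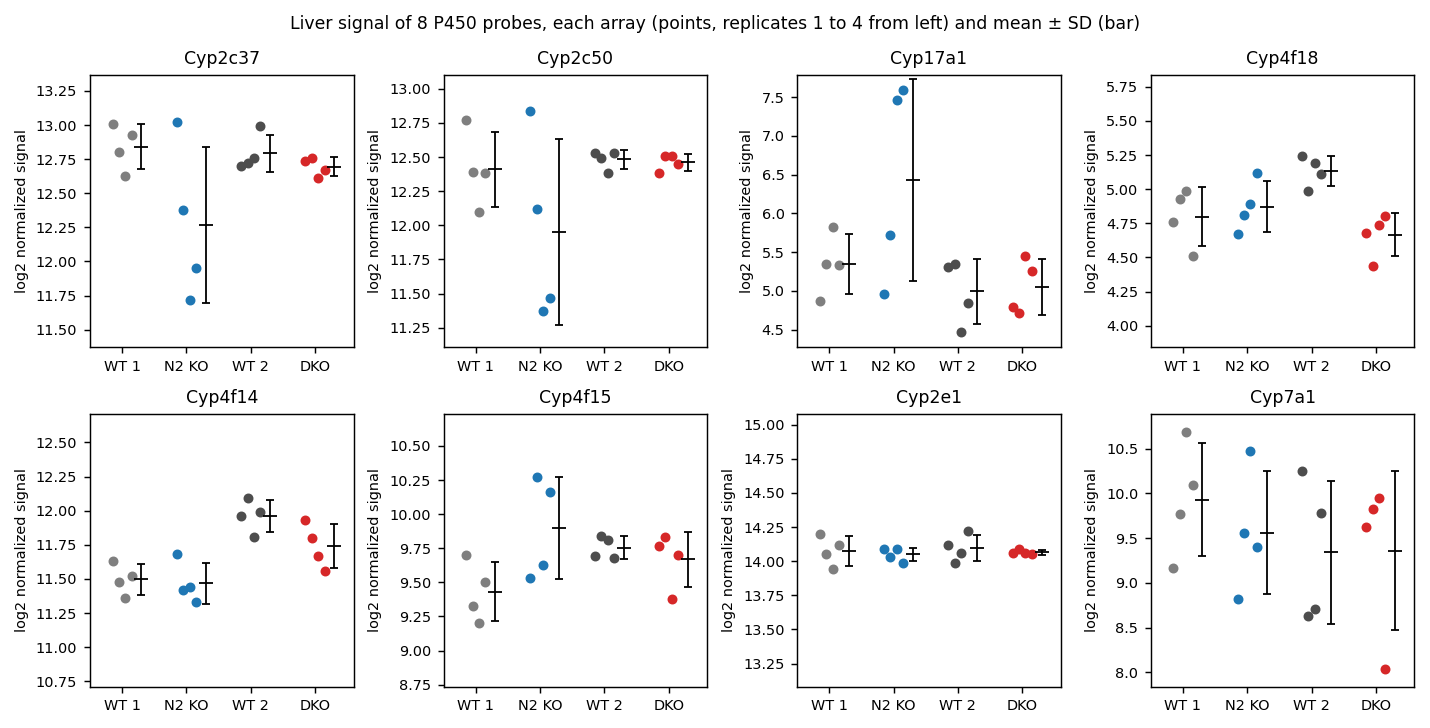
Liver signal of 8 P450 probes on a log2 scale, with 1 point per mouse (replicates 1 to 4 from left to right) and the mean ± SD beside each group of 4 (WT 1 and N2 KO, wild types and Hmgn2-/- of cohort 1; WT 2 and DKO, wild types and Hmgn1-/-n2-/- of cohort 2). Cyp2c37, Cyp2c50 and Cyp17a1 spread widely within the Hmgn2-/- group, Cyp2e1 lies between 13.94 and 14.22 on all arrays, and Cyp7a1 spreads in all groups.

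Cyp1a2, the caffeine-oxidising enzyme and a target of AhR, was also low in replicates 3 and 4 of the Hmgn2 knockouts. Its second probe read 11.68, 10.75, 10.76 and 11.28 in the wild types and 11.51, 11.64, 10.32 and 10.43 in the Hmgn2 knockouts. Those of cohort 2 were 11.47, 11.77, 11.69 and 11.84 in the wild types and 11.74, 11.71, 11.21 and 11.34 in the double knockouts. The mutants overlapped with their wild types, at -0.14 ± 0.27 and -0.19 ± 0.27. Cyp2d40 had the same low pair, with 9.82, 10.39, 8.99 and 9.1 in the Hmgn2 knockouts beside 9.5, 10.06, 10.07 and 9.64 in the wild types, and differed by -0.25 ± 0.23. Cyp2b10, the classical target of CAR, went its own way, with 5.49, 4.3, 4.48 and 4.77 in the wild types, 5.26, 5.2, 4.69 and 7.37 in the Hmgn2 knockouts, 5.6, 5.53, 5.89 and 4.97 in the wild types of cohort 2 and 5.78, 6.04, 4.94 and 5.28 in the double knockouts. Replicate 4 of the Hmgn2 knockouts was its highest array, and the differences were 0.87 ± 0.44 (adjusted p = 1) and 0.01 ± 0.44. Without that 1 array the difference in the Hmgn2 knockouts was 0.29 (adjusted p = 1).

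Cyp3a11, the main inducible target of PXR, read 13.15, 13.44, 13.06 and 13.69 in the wild types and 13, 13.32, 13.7 and 13.8 in the Hmgn2 knockouts. In cohort 2 it read 13.32, 13.56, 13.17 and 12.76 in the wild types and 13.34, 13.09, 13.46 and 13.3 in the double knockouts of cohort 2. The groups overlapped and differed by 0.12 ± 0.19 and 0.1 ± 0.19. Its relative Cyp3a25 read 10.86, 11.19, 10.78 and 10.64 in the wild types and 11.41, 11.1, 11.45 and 11.38 in the double knockouts, and 11.22, 11.06, 10.55 and 11.56 in the wild types and 11.36, 10.85, 11.42 and 11.81 in the Hmgn2 knockouts of cohort 1. In cohort 2, 3 of the 4 double knockouts lay above every wild type, and the difference was 0.47 ± 0.21 (unadjusted p = 0.0357, adjusted p = 0.583). In cohort 1 it was 0.26 ± 0.21.

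Further members came among the 8 smallest p-values of a liver comparison without passing it. Cyp2a12, a steroid and bile acid hydroxylase, read 11.58, 11.45, 11.52 and 11.8 in the wild types and 11.8, 11.84, 11.78 and 11.85 in the double knockouts, with 11.88, 11.69, 11.74 and 11.83 in the wild types and 11.97, 11.94, 11.6 and 11.99 in the Hmgn2 knockouts of cohort 1. The double knockouts were close together and lay above 3 of 4 wild types, with a difference of 0.23 ± 0.11 (adjusted p = 0.602). Cyp2c70, which makes muricholic acids in mice, read 12.7, 13.13, 13.21 and 12.86 in the wild types and 13.17, 12.68, 13.36 and 13.1 in the Hmgn2 knockouts of cohort 1. Cohort 2 gave 13.32, 13.1, 13.21 and 13.15 in the wild types and 13.46, 13.27, 13.62 and 13.26 in the double knockouts. It differed by 0.1 ± 0.15 in the Hmgn2 knockouts and by 0.21 ± 0.15 in the double knockouts, with overlap in both. Cyp2j9, an arachidonic acid epoxygenase family member, read 7.36, 7.07, 6.91 and 7.51 in the wild types and 7.16, 6.88, 6.94 and 6.61 in the Hmgn2 knockouts of cohort 1. Cohort 2 gave 6.6, 6.71, 7.39 and 6.79 in the wild types and 6.68, 6.74, 6.28 and 6.81 in the double knockouts. Both mutants had lower means than their wild types, and the mean of both changes was -0.28 ± 0.13 (unadjusted p = 0.0431, adjusted p = 0.812).

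Family 4 had 9 tested probes of 9 genes, of which 7 were higher and 2 lower in the Hmgn2 knockouts (median 0.29) and 2 higher and 7 lower in the double knockouts (median -0.13), with 0 called in either. Cyp4f18, which inactivates leukotriene B4 and is known from neutrophils and other myeloid cells, had the smallest p of all members in the double knockouts. It read 5.24, 4.99, 5.19 and 5.11 in the wild types of cohort 2 and 4.68, 4.44, 4.74 and 4.8 in the double knockouts, and 4.76, 4.93, 4.99 and 4.51 in the wild types and 4.67, 4.81, 4.89 and 5.12 in the Hmgn2 knockouts of cohort 1. Every double knockout lay below every wild type of its cohort. The groups of cohort 2 did not overlap for 2 of 55 P450 probes, Cyp4f18 and Cyp4a31, both lower (3.64%, against 3.55% of all probes in that direction), and in cohort 1 for 0 (1.96% of all). The difference of Cyp4f18 was -0.47 ± 0.13 (unadjusted p = 0.002, adjusted p = 0.211). Since no double knockout array read it well above background, the bound on the fold is at least 1.13-fold lower. In the Hmgn2 knockouts it differed by 0.08 ± 0.13, and the difference between both changes was -0.55 ± 0.18 (adjusted p = 0.629).

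Beside Cyp4f18, all 10 tested probes of 8 Kupffer cell and macrophage genes were lower in the double knockouts than in their wild types, with a median of -0.25 and 0 called. Over all 12 probes of that list, tested or not, the mean log2 level per array ran from 5.78 to 6.7 in those wild types and from 5.53 to 6.32 in the double knockouts. Of 10 tested liver endothelium probes, 9 were lower, with a median of -0.43 and 0 called. The mean level of all 12 probes of this list ran from 6.2 to 6.32 in the wild types and from 5.74 to 6.34 in the double knockouts. Of the 3 tested neutrophil probes, 2 were higher and 1 lower in the double knockouts (median 0.04), and the mean level of the list of 5 ran from 4.88 to 5.07 in the wild types and from 4.92 to 5.72 in the double knockouts. Between the wild types, where Cyp4f18 was higher in cohort 2 by 0.34 ± 0.13 (adjusted p = 0.228), the same 10 Kupffer cell and macrophage probes were all lower in cohort 2 (median -0.3). The part of these cells in Cyp4f18 was not tested, and in whole-organ RNA fewer cells of a type and less RNA per cell cannot be told apart.

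The Cyp4a enzymes are omega-hydroxylases of fatty acids and targets of PPAR alpha, and Cyp4a12a and Cyp4a12b are made mainly by males. Cyp4a12b read 11.1, 10.55, 10.54 and 10.69 in the wild types and 11.31, 10.65, 11.27 and 11.57 in the Hmgn2 knockouts. Cohort 2 gave 10.81, 10.99, 10.98 and 10.65 in the wild types and 11.04, 11.01, 11.55 and 10.95 in the double knockouts. Replicates 1, 3 and 4 of the Hmgn2 knockouts and 3 of 4 double knockouts lay above all wild types of their cohort. The differences were 0.48 ± 0.19 and 0.28 ± 0.19, and their mean of 0.38 ± 0.13 had the smallest p for a mean change among the members (unadjusted p = 0.0102, adjusted p = 0.609). Cyp4a12a, measured by another probe, read 12.51, 12.04, 11.77 and 12.44 in the wild types and 12.16, 11.68, 12.08 and 12.26 in the Hmgn2 knockouts of cohort 1. Cohort 2 gave 11.47, 12.15, 11.74 and 11.97 in the wild types and 12.07, 12.09, 12.25 and 12.13 in the double knockouts, at -0.15 ± 0.18 and 0.3 ± 0.18. The pair of neighbouring genes thus had opposite signs in the Hmgn2 knockouts, neither past the test.

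Cyp4a31 read 8.1, 7, 6.59 and 8.21 in the wild types and 7.56, 7.19, 7.27 and 9.25 in the Hmgn2 knockouts of cohort 1. In cohort 2 it read 7.51, 7.81, 7.14 and 7.15 in the wild types and 7.13, 6.61, 7.12 and 6.65 in the double knockouts. The double knockouts lay just below the lowest wild type, and replicate 4 of the Hmgn2 knockouts was the highest of all arrays. The differences were 0.34 ± 0.4 and -0.52 ± 0.4 (adjusted p = 1 and 0.753).

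The Cyp4f genes code for hydroxylases of leukotrienes and long-chain fatty acids. Cyp4f15 read 9.7, 9.33, 9.2 and 9.5 in the wild types and 9.53, 10.27, 9.63 and 10.16 in the Hmgn2 knockouts. In cohort 2 it read 9.69, 9.84, 9.81 and 9.68 in the wild types and 9.77, 9.83, 9.38 and 9.7 in the double knockouts. Replicates 2 and 4 of the Hmgn2 knockouts were its highest arrays. The difference was 0.46 ± 0.16 in the Hmgn2 knockouts (unadjusted p = 0.0117, adjusted p = 1) and -0.09 ± 0.16 in the double knockouts, and the difference between both changes was -0.55 ± 0.23 (adjusted p = 0.825). Cyp4b1, a hydroxylase known for its activity on furans, read 5.28, 5.77, 5.33 and 5.68 in the wild types and 5.97, 5.28, 6.04 and 6.13 in the Hmgn2 knockouts of cohort 1. Cohort 2 gave 5.87, 5.82, 5.72 and 5.65 in the wild types and 5.48, 5.52, 5.48 and 6.06 in the double knockouts. Its groups overlapped in both cohorts, at 0.34 ± 0.18 and -0.13 ± 0.18.

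Of the members with no settled substrate or a recent one, Cyp4v3, Cyp2u1 and Cyp20a1 were tested. Cyp4v3, a fatty acid hydroxylase, read 11.73, 11.22, 11.12 and 11.7 in the wild types and 11.64, 11.72, 11.63 and 11.72 in the Hmgn2 knockouts of cohort 1. Cohort 2 gave 11.49, 11.61, 11.65 and 11.59 in the wild types and 11.66, 11.65, 12.12 and 11.64 in the double knockouts, with differences of 0.23 ± 0.14 and 0.18 ± 0.14. Cyp2u1 read 5.9, 5.32, 4.97 and 5.94 in the wild types and 6.09, 5.79, 5.68 and 5.35 in the Hmgn2 knockouts of cohort 1. Cohort 2 gave 5.7, 6.23, 5.77 and 5.76 in the wild types and 6.02, 5.82, 5.51 and 5.9 in the double knockouts. Both genes overlapped between mutants and wild types.

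The members were also grouped across families, and 0 probes of any group were called in either mutant. Around the central vein, 18 probes of 9 pericentral P450 genes had 4 higher and 14 lower in the Hmgn2 knockouts (median -0.12), and 8 higher and 10 lower in the double knockouts (median -0.03). The 18 are not independent cases, since several belong to 1 gene or to close relatives. Cyp2c37, Cyp2c50 and Cyp1a2 were low in the same replicates 3 and 4 of the Hmgn2 knockouts. The 3 periportal probes, of Cyp2f2, Cyp17a1 and Cyp4b1, were all higher in the Hmgn2 knockouts (median 0.34) and 1 of 3 was in the double knockouts (median -0.06). Genes outside the P450 family that mark the same zones gave 3 higher and 9 lower of 12 pericentral probes (median -0.11) and 8 higher and 4 lower of 12 periportal probes (median 0.13) in the Hmgn2 knockouts, again with 0 called. In the double knockouts these genes gave 5 higher and 7 lower pericentral probes (median -0.06) and 3 higher and 9 lower periportal probes (median -0.11), with 0 called. Over all 10943 probes 50.5% were higher in the Hmgn2 knockouts and 47.7% in the double knockouts. Male-biased members (6 probes) had a median of 0.06 in the Hmgn2 knockouts and -0.01 in the double knockouts. Of 13 female-biased genes 10 had a probe on the array and only 4 passed the filter, and their 4 probes had medians of 0.83 and 0.03. In the Hmgn2 knockouts 3 of them were higher, Cyp17a1, Cyp26a1 and Cyp2b10, and 1 was lower, Cyp39a1. The 3 higher ones were dim and rose mainly through 1 or 2 arrays each, with the values given above. Targets of CAR and PXR (10 probes) had medians of -0.1 and 0.09, and those of PPAR alpha (2 probes) 0.1 and -0.11.

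The yardstick for these values is the difference between the wild types of both cohorts, in which strain label and cohort cannot be told apart. Here too 0 of 55 P450 probes were called, where 1.17% of all probes were, and 5 had an unadjusted p under 0.05 (9.09%, against 14.9% of all). For 4 members, Cyp2d22, Cyp4f13, Cyp4f14 and Cyp4f18, every wild type of cohort 2 lay above every wild type of cohort 1 (7.27%, against 5.03% of all probes in that direction). In the other direction this held for 0 members (5.16% of all), so that over both directions the share was 7.27% of the members and 10.2% of all probes. Over the 55 probes the median absolute log2 difference was 0.22 between the wild types, against 0.145 for the Hmgn2 knockouts and 0.124 for the double knockouts beside their own wild types. Over all probes it was 0.15, 0.095 and 0.127.

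Cyp4f14 came nearest to the threshold. It read 11.63, 11.48, 11.36 and 11.52 in the wild types of cohort 1 and 11.96, 12.09, 11.81 and 11.99 in those of cohort 2. The Hmgn2 knockouts gave 11.68, 11.42, 11.44 and 11.33 and the double knockouts 11.93, 11.8, 11.67 and 11.56. The wild types of cohort 2 lay above all arrays of cohort 1, while the double knockouts overlapped with both groups of cohort 1. The difference between the wild types was 0.47 ± 0.11 (adjusted p = 0.0542), with changes of -0.03 ± 0.11 and -0.22 ± 0.11 in the mutants. The adjusted p fell under 0.05 when replicate 1 of the wild types of cohort 1 or replicate 2 of the Hmgn2 knockouts was left out (0.0437 and 0.0426). Cyp4f13 read 10.09, 9.76, 9.97 and 10.05 in the wild types of cohort 1 and 10.2, 10.28, 10.43 and 10.35 in those of cohort 2. The Hmgn2 knockouts had 9.96, 10.3, 9.98 and 9.96 and the double knockouts 10.04, 10.34, 10.13 and 10.13, and the gene differed by 0.34 ± 0.11 between the wild types (adjusted p = 0.162). Cyp2d22, a member of the Cyp2d drug enzymes, read 11.87, 11.71, 11.57 and 11.83 in the wild types of cohort 1 and 11.99, 12, 11.92 and 11.96 in those of cohort 2. Its Hmgn2 knockouts had 11.99, 11.73, 11.54 and 11.65 and its double knockouts 11.87, 11.9, 11.84 and 11.98, and the wild types differed by 0.22 ± 0.11 (adjusted p = 0.339). In the other direction Cyp39a1, with the values given above, differed by -0.85 ± 0.32 (adjusted p = 0.218) with overlap.

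P450 signals varied more between mice of 1 group than those of other genes. The median standard deviation within groups was 0.294 for the 55 P450 probes and 0.217 for all 10943, and 29 P450 probes (52.7%) lay above 0.28, the upper quartile of all probes. It ran from 0.0773 to 0.891 over the members, with Cyp2e1 among the lowest and Cyp26a1 at the top. Probes of 1 gene did not always share their spread. For Cyp2d26, a pair of probes had 0.42 and 0.43 and the remaining one 0.13. The first of the pair read 10.2, 10.77, 10.81 and 10.91 in the wild types and 11.14, 10.05, 10.78 and 10.91 in the Hmgn2 knockouts of cohort 1, and 11.13, 11.42, 10.13 and 10.48 in the wild types and 10.99, 10.68, 10.88 and 11.11 in the double knockouts of cohort 2. Replicate 1 of the wild types of cohort 1, replicate 2 of the Hmgn2 knockouts and replicates 3 and 4 of the wild types of cohort 2 were low.

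The remaining Cyp2d26 probe did not set 3 of these arrays apart and was lowest on replicate 4 of the wild types of cohort 2, with 11.97, 11.97, 11.91 and 12.09 in the wild types and 12.03, 11.77, 11.64 and 11.74 in the Hmgn2 knockouts of cohort 1. It gave 11.77, 11.96, 12 and 11.58 in the wild types and 11.76, 11.78, 11.7 and 11.71 in the double knockouts of cohort 2. The widely spread probe of Cyp3a13, a target of PXR, read 6.07, 7.45, 7.66 and 6.85 in the wild types and 7.14, 6.04, 7.26 and 7.12 in the Hmgn2 knockouts of cohort 1. Cohort 2 gave 6.76, 6.91, 5.8 and 5.95 in the wild types and 6.89, 6.5, 6.94 and 7.17 in the double knockouts. It was lowest on the 4 arrays named for Cyp2d26. The steadiest Cyp3a13 probe read 10.78, 11.11, 11.27 and 10.71 in the wild types and 10.67, 10.6, 10.91 and 10.9 in the Hmgn2 knockouts of cohort 1. Cohort 2 gave 10.57, 10.77, 10.76 and 10.49 in the wild types and 10.46, 10.66, 10.82 and 10.92 in the double knockouts. In the double knockouts the first of these differed by 0.52 ± 0.34 and the second by 0.07 ± 0.14. Cyp2c67 also had a steady probe and a spread one, with standard deviations of 0.2 and 0.59.

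**Figure D3:**
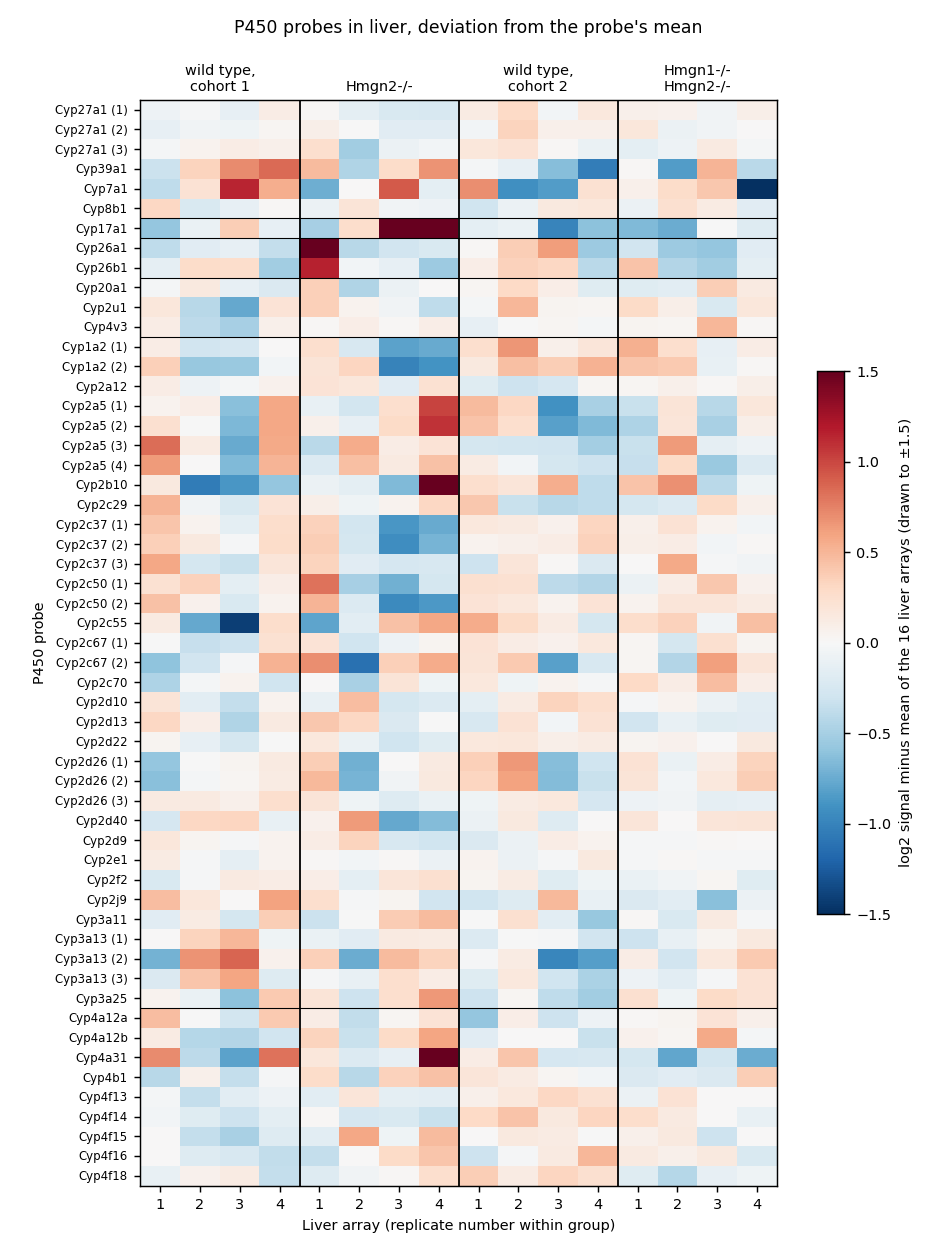
Deviation of each of the 55 P450 probes from its mean over the 16 liver arrays, in log2 units with colours drawn to 1.5 either way (columns, replicates 1 to 4 of the 4 groups; lines part the role groups; numbers in brackets tell apart probes of 1 gene). Replicates 3 and 4 of the Hmgn2-/- group stand out as low in Cyp2c37, Cyp2c50, Cyp1a2 and Cyp2d40 and high in Cyp17a1, and replicate 1 of that group as high in Cyp26a1 and Cyp26b1.

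Replicates 2 and 3 of the wild types of cohort 1 were high in Lcn2, an acute-phase gene of the liver that also marks neutrophils: the 4 wild types read 5.09, 10.47, 13.02 and 4.62, against 5.02 to 7.11 on the 12 other liver arrays. Of the 5 neutrophil genes, Ngp and Camp were detected on no liver array, and the mean log2 level of the list ran from 4.72 to 6.93 in that group and from 4.83 to 5.72 in the others. The same replicates 2 and 3 had the lowest Cyp2b10 (4.3 and 4.48, against 5.49 and 4.77) and the lowest Cyp2c55 of their group (6.05 and 5.41, against 6.95 and 7.08). Cyp2c55, a target of CAR and PXR, read 6.03, 6.66, 7.26 and 7.4 in the Hmgn2 knockouts. The part of this state of the liver in the P450 values was not tested. Without those 2 arrays, 0 P450 probes were called in each of the 5 liver comparisons, and the median over the P450 probes in the Hmgn2 knockouts turned from 0.037 to -0.078. In the Hmgn2 knockouts the Cyp2b10 difference was then 0.5 in place of 0.87, that of Cyp4f15 0.29 in place of 0.46, and that of Cyp4a12b 0.31 in place of 0.48. Differences further from 0 were found for Cyp2c37, at -0.7 in place of -0.57, and for Cyp17a1, at 1.33 in place of 1.09 (adjusted p = 0.999 for all 5). Between the wild types, 4 probes of the whole array were called without them, in place of 128, and Cyp4f14 differed by 0.39 (adjusted p = 0.461). Leaving them out took 2 of the 4 wild types of cohort 1 from the fit. The loss of replication and the state of these livers cannot be told apart in these values.

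Genes that work with the P450 enzymes were read from lists that name them by role. In the Hmgn2 knockouts 0 probes were called among the 8 of electron donors, the 11 of heme synthesis, the 21 of nuclear receptors, the 58 of conjugating enzymes and the 20 of other bile acid enzymes and carriers. In the double knockouts 1 of these was called, where 0.256% of all tested probes were (0.0183% in the Hmgn2 knockouts). It is a probe of the sulfotransferase Sult5a1. It read 5.25, 5.37, 5.33 and 5.51 in the wild types and 6.37, 6.12, 6.02 and 5.87 in the double knockouts, with 5.87, 6.07, 6.05 and 5.9 in the wild types and 5.99, 5.76, 5.56 and 5.76 in the Hmgn2 knockouts of cohort 1. Every double knockout lay above every wild type of cohort 2, as for 2.38% of all tested probes, and this probe rose by 0.73 ± 0.12 (adjusted p = 0.0114). A second Sult5a1 probe gave 0.65 ± 0.14 (adjusted p = 0.0883). The wild types of cohort 2 were the low group: they were also below those of cohort 1, at -0.61 ± 0.12 (adjusted p = 0.0209).

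Between the wild types, 2 further partner genes passed the test, where 1.17% of all tested probes did. Most calls of this comparison were lost without the 2 arrays high in Lcn2, which also takes 2 of the 4 wild types of cohort 1 from the fit. The glucuronosyltransferase Ugt2b1 was lower in cohort 2, at -0.68 ± 0.12 (adjusted p = 0.0133), and so was Baat, which conjugates bile acids to amino acids, at -0.62 ± 0.13 (adjusted p = 0.0282). Alas1, the first enzyme of heme synthesis, varied widely without order by group, reading 11.23, 12.1, 12.8 and 9.89 in the wild types and 10.05, 11.55, 10.31 and 11.79 in the Hmgn2 knockouts of cohort 1. Cohort 2 gave 12.56, 9.63, 11.73 and 11.46 in the wild types and 11.83, 12.18, 11.38 and 10.36 in the double knockouts. Hnf4a, the gene of HNF4 alpha, differed by -0.02 ± 0.13 and -0.04 ± 0.13, Nr1i2, the gene of PXR, by 0.13 ± 0.16 and -0.08 ± 0.16, and Ppara by 0.33 ± 0.15 and 0.17 ± 0.15, none past the test.

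Across organs, the P450 genes were largely liver genes. On the 32 wild-type arrays normalized together, 62 P450 probes of 45 genes were detected on at least 4 arrays. They were tested with all 16381 probes that met this filter, with the mouse as a random block. Of the 62, 50 probes of 37 genes were higher in the liver than in each of the other organs (80.6%, against 20.2% of all probes), 7 were highest in the spleen (11.3%, against 14.2%), 2 in the brain (3.23%, against 23.4%) and 0 in the thymus (15.3% of all). Many met the filter through the liver: 47 P450 probes were detected on all 8 liver arrays, against 12 in brain, 18 in spleen and 16 in thymus. The 80.6% is therefore partly set by the filter. Cyp11b2, Cyp20a1 and Cyp2s1 had no single highest organ. Of the 98 probes, 7 were detected on all 32 arrays and 27 on none.

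Where an organ did not read a probe well above background, the fold is a bound against that organ's lowest detected signal. Cyp2e1 was 186-fold higher in liver than in spleen, 25.2-fold higher than in thymus and at least 505-fold higher than in brain, with log2 means of 13.85 ± 0.13 (SD, n = 8) in liver, 6.31 ± 0.79 in spleen and 9.2 ± 0.87 in thymus. Cyp3a11 was at least 282-fold higher than in brain and at least 309-fold higher than in spleen, Cyp2c70 at least 248-fold and 271-fold, and Cyp2d9, a male-biased steroid hydroxylase, at least 269-fold and 295-fold. In the thymus these 3 were read well above background on 1 of 8 wild-type arrays, replicate 1 of cohort 1, and liver was 259-fold, 240-fold and 280-fold higher. Without that array they were on none, and liver was at least 284-fold, 249-fold and 271-fold higher, while the Cyp2e1 fold over thymus was 30.6. Other members were read in every organ. Cyp27a1 was 26.1-fold to 30.4-fold higher in liver than in brain and 6.79-fold to 7.93-fold higher than in spleen over its 3 probes, with 25-fold to 31.9-fold over thymus, and Cyp2d22 was 10.6-fold, 21.2-fold and 21.8-fold higher than in brain, spleen and thymus. Cyp4f13 was 7.02-fold, 3.45-fold and 5.28-fold higher.

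A few members led in another organ. Cyp46a1, the 24-hydroxylase that lets cholesterol leave the brain, had a log2 mean of 6.51 ± 0.7 (SD, n = 8) in brain, where all 8 arrays detected it, and was detected on no wild-type array of the other organs, which makes it at least 2.06-fold higher than in liver. Cyp2j9 was detected everywhere, at 8.72 ± 0.27 in brain, 7.77 ± 0.31 in liver, 5.16 ± 0.22 in spleen and 5.24 ± 0.11 in thymus, with spleen and thymus within their spread. Cyp4f18 led in spleen at 10.47 ± 0.36 by the probe also read in liver, 14.8-fold higher than in thymus, 28.3-fold higher than in liver and at least 48.5-fold higher than in brain. Cyp1b1, an AhR target that hydroxylates estradiol, stood at 9.42 ± 0.38 in spleen, 6.14-fold higher than in thymus, 19.2-fold higher than in brain and at least 15.5-fold higher than in liver. The 3 Cyp4f16 probes also led in spleen.

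**Figure D4:**
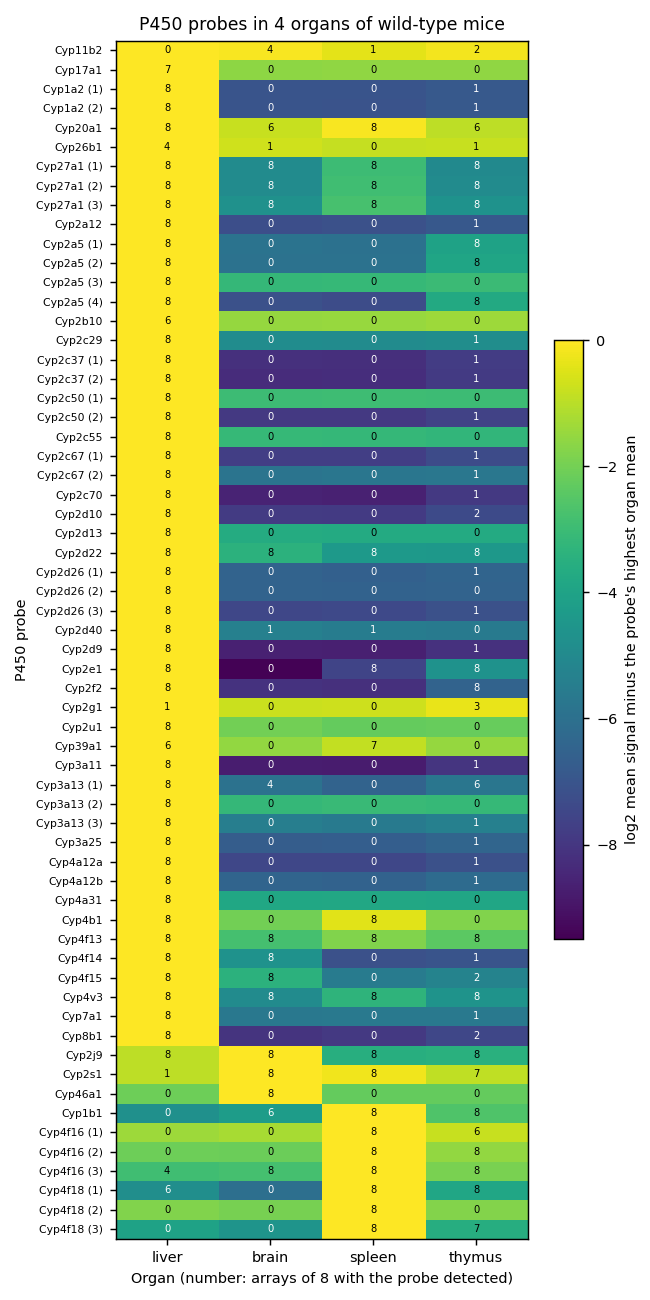
Mean log2 signal of the 62 P450 probes tested on the 32 wild-type arrays in liver, brain, spleen and thymus (8 arrays each), relative to the organ where the probe is highest, with the number of arrays that detect the probe. Yellow marks the highest organ: most lines are yellow in liver and dark elsewhere, and Cyp4f18, Cyp4f16 and Cyp1b1 are yellow in spleen.

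In the brain, 16 P450 probes of 14 genes were tested, and 0 were called in the Hmgn2 knockouts (0.0152% of all probes) and 0 in the double knockouts (0.175% of all), with 1 and 0 at an unadjusted p under 0.05 (2.71% and 7.03% of all). Cyp46a1 read 6.69, 5.36, 7.5 and 7.1 in the wild types and 5.62, 7.39, 6.89 and 6.89 in the Hmgn2 knockouts, and 6.26, 6.46, 6.27 and 5.86 in the wild types and 6.17, 6.45, 6.34 and 6.5 in the double knockouts of cohort 2. The groups of cohort 1 were spread wider than those of cohort 2, and the differences were 0.04 ± 0.36 and 0.16 ± 0.36. One brain probe did pass between the wild types, where 1.71% of all probes were called. It belongs to Cyp20a1, a P450 with no known substrate, and read 5.84, 5.38, 5.18 and 5.34 in the wild types of cohort 1 and 4.92, 4.53, 4.66 and 4.82 in those of cohort 2. Every array of cohort 2 was below every one of cohort 1, by -0.7 ± 0.15 (adjusted p = 0.018). Such a separation downward held for 1 of 16 P450 probes (6.25%, against 4.22% of all probes). The cohort 2 values lay near background: the probe was read well above it on 4 of 4 arrays in both groups of cohort 1, but on 2 wild types and 1 double knockout of cohort 2, so that it passed the filter mainly through cohort 1 and the size of the difference is uncertain. Without background correction it was -0.21, and with detection on 12 arrays required the probe was not tested. The mutants followed their cohort, with 5.41, 5.05, 5.28 and 5.21 in the Hmgn2 knockouts and 4.99, 4.6, 4.52 and 4.61 in the double knockouts. Without replicate 2 or replicate 3 of the wild types of cohort 2 the adjusted p was 0.067 and 0.0686, and with the 8 wild types alone it was 0.0548. In the liver the same probe differed by 0.11 ± 0.17.

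In the spleen, 19 probes of 13 genes were tested. In the Hmgn2 knockouts 0 were called (0% of all probes), with 2 at an unadjusted p under 0.05 (2.94% of all), and in the double knockouts 0 (0.0221% of all), with 1 (10.5% of all). Cyp4f18 read 10.83, 10.27, 10.39 and 10.43 in the wild types and 10.16, 10.61, 10.08 and 10.75 in the Hmgn2 knockouts of cohort 1. Cohort 2 gave 10.84, 10.34, 11.18 and 10.43 in the wild types and 10.81, 10.76, 10.68 and 10.75 in the double knockouts by the probe tested in the liver. Its groups overlapped, at -0.08 ± 0.19 and 0.05 ± 0.19. Cyp1b1 read 9.26, 9.46, 9.29 and 9.32 in the wild types and 9.94, 9.55, 9.27 and 9.75 in the Hmgn2 knockouts of cohort 1. Cohort 2 gave 9.74, 10.06, 10.07 and 9.87 in the wild types and 9.63, 9.7, 9.89 and 9.86 in the double knockouts. Both groups of cohort 2 lay above the wild types of cohort 1 but overlapped with the Hmgn2 knockouts. The difference between the wild types was 0.6 ± 0.13 (adjusted p = 0.105, where 0.0443% of all probes were called). Wild types separated in this direction for 1 of 19 P450 probes (5.26%, against 3.69% of all). Without the 2 spleen arrays whose Hmgn2 level went against the label, 0 P450 probes were called in either mutant.

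Of the 4 organs, the thymus had the largest share of called probes in the Hmgn2 knockouts. For these mice 13.8% of all thymus probes were called and 0 of 23 P450 probes were, with 0 at an unadjusted p under 0.05 (29.3% of all). In the double knockouts 0 of 23 were called (0.251% of all), with 3 at an unadjusted p under 0.05 (8.45% of all). The 3 were all lower: 2 are probes of Cyp2a5, a coumarin hydroxylase, and 1 is of Cyp2g1, an enzyme known from the olfactory lining. The mean of both changes was called for 1 P450 probe, where 9.5% of all probes were called. This Cyp2a5 probe read 7.9, 7.91, 8.11 and 7.59 in the wild types and 7.99, 7.54, 7.14 and 7.58 in the Hmgn2 knockouts. In cohort 2 it read 8.15, 7.81, 7.96 and 8.15 in the wild types and 7.41, 6.6, 7.65 and 7.66 in the double knockouts. All double knockouts lay below the wild types of cohort 2, while the groups of cohort 1 overlapped. Such a separation downward in cohort 2 held for 2 of 23 P450 probes (8.7%, against 4.11% of all probes). The mean of both changes was a fall: the level fell by 0.5 on the log2 scale (standard error 0.15, adjusted p = 0.0434), with -0.31 ± 0.21 and -0.69 ± 0.21 in the single comparisons (adjusted p = 0.339 and 0.265). It passed the test with replicate 1 or 4 of the Hmgn2 knockouts or replicate 3 or 4 of the double knockouts left out, and with any 1 of the 12 other arrays left out its adjusted p was 0.0503 to 0.0926. The other Cyp2a5 probes tested gave mean changes of -0.42 ± 0.14 and -0.46 ± 0.21 (adjusted p = 0.0776 and 0.169).

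Replicate 1 of the wild types of cohort 1 stands apart in the thymus, with 44 P450 probes detected. Cyp3a11 read 9.02, 4.33, 4.33 and 4.46 in that group and 4.63, 4.34, 6.17 and 4.42 in the Hmgn2 knockouts, and 4.65, 4.82, 4.34 and 4.43 in the wild types and 4.61, 4.33, 4.92 and 4.3 in the double knockouts of cohort 2. Cyp2c70 read 8.51 on the same array, 5.36 in replicate 3 of the Hmgn2 knockouts and 4.2 to 4.75 on the others. The hepatocyte gene Apoa1 read 10.94, 5.87, 5.51 and 6.43 in the wild types and 5.5, 5.63, 7.62 and 5.34 in the Hmgn2 knockouts, with the same 2 arrays highest. Of 9 probes of 7 hepatocyte genes 4 were tested. The mean log2 level of all 9 per array ran from 4.65 to 7.54 in that wild-type group, from 4.61 to 5.75 in the Hmgn2 knockouts and from 4.61 to 5.05 in cohort 2. The Alb probe was at background on all arrays. Without both arrays, 0 P450 probes were called in the thymus, and the mean change of the Cyp2a5 probe was -0.43 (adjusted p = 0.128).

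Cyp2e1 is made in liver and in fat, and its thymus values are set beside genes of both. It read 11.1, 8.59, 9.39 and 9.23 in the wild types and 9.81, 8.92, 11.03 and 11.61 in the Hmgn2 knockouts. In cohort 2 it read 9.26, 9.26, 8.46 and 9.02 in the wild types and 8.26, 9.47, 10.71 and 9.06 in the double knockouts. High arrays occurred in 3 of the 4 groups, and the differences of 0.77 ± 0.58 and 0.38 ± 0.58 did not pass. Among its 4 highest arrays, replicate 1 of the wild types of cohort 1 and replicate 3 of the Hmgn2 knockouts are those highest in Apoa1, and without both the differences were 1.04 ± 0.59 and 0.38 ± 0.51 (adjusted p = 0.322 and 0.882). The other high arrays, replicate 4 of the Hmgn2 knockouts and replicate 3 of the double knockouts, read Apoa1 at 5.34 and 6.38. Adipoq, the adiponectin gene, read 10.68, 7.92, 8.44 and 9.76 in the wild types and 10.28, 8.35, 10.02 and 10.43 in the Hmgn2 knockouts of cohort 1. Cohort 2 gave 9.62, 9.42, 8.23 and 9.15 in the wild types and 7, 9.37, 10.01 and 8.21 in the double knockouts. The mean level of 5 fat genes ran from 5.93 to 8 in the wild types of cohort 1, 5.63 to 8.04 in the Hmgn2 knockouts, 5.6 to 7.1 in the wild types of cohort 2 and 5.19 to 7.09 in the double knockouts. The part of fat or liver RNA in the Cyp2e1 values was not tested.

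**Figure D5:**
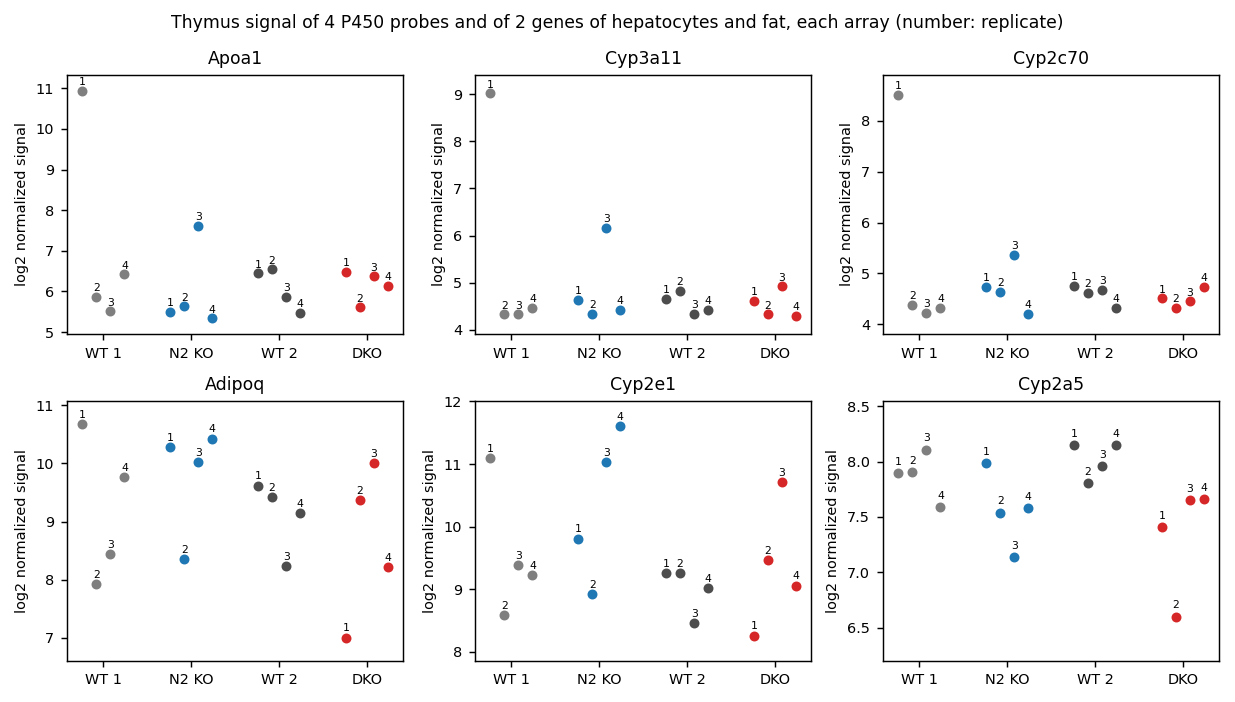
Thymus signal of Cyp3a11, Cyp2c70, Cyp2e1 and Cyp2a5 beside the hepatocyte gene Apoa1 and the fat gene Adipoq, on a log2 scale, with 1 point per mouse and its replicate number (groups as for the liver). Replicate 1 of the wild types of cohort 1 is highest in Apoa1, Cyp3a11 and Cyp2c70. All 4 Hmgn1-/-n2-/- arrays lie below the wild types of cohort 2 in Cyp2a5, as for 4.11% of all tested thymus probes.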

How the data were processed

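RNA of brain, liver, spleen and thymus was measured on Illumina bead arrays, 16 per organ. Per the file headers, the deposited values are a non-normalized signal intensity for each probe, on a linear scale, with a detection p-value, and GenomeStudio 2011.1 is named in the submitters' processing notes. A second deposited table holds the authors' normalized intensity and was used only as an alternative. No source used here says how probes were placed on a genome. Arrays have no depth in counts, and precision rests on how many there are.

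Intensities of an organ were corrected and quantile normalized with neqc of limma 3.58.1 in R 4.3.3 (offset 16), giving log2 values made from the deposited intensities. Probes with a detection p under 0.01 on at least 4 arrays were tested by limma with 4 group means, with Benjamini-Hochberg adjustment over all probes tested. Values after ± are standard errors of limma with n = 4 mice a group unless SD is written. Of the probes, 1719 carry no gene, and 8 symbols were updated through RefSeq. The tests were checked on simulated data.

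Members, lists and comparisons were chosen with earlier results of these data known, and lists support no result by themselves. Full values are given for members that pass a liver test, for the 8 smallest p-values of each liver comparison, for up to 3 leading members of a role group and for members called in other organs. The brain comparison of wild types and the thymus mean change were added after their calls were seen, and Cyp2d26, Cyp2d40, Cyp2c55, Cyp4a31, Cyp26b1, Cyp1b1 and the partner genes named were chosen after their values were seen. Replicate numbers were not used as pairs. Alternatives changed the background correction, scaling, joint normalization, source table, filter, probe choice, arrays in the fit, array weights, variance prior and replicate block, and each array was omitted once.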

Additional observations from a re-analysis of the deposited data

Results flagged for a closer look

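A single array stood far from the 3 others of its group for 18 of 240 groups looked at, over 60 probes, by Dixon's criterion for 4 values. Among these probes, those of Cyp3a11, Cyp2c70 and Cyp2e1 in the thymus were picked by name and give all thymus cases below. Chance alone sets a single array this far apart in about 5% of groups, which is no yardstick for picked probes. In the Hmgn2 knockouts of the liver this held for Cyp26a1 in replicate 1 (7.98, others up to 4.68), Cyp2a12 in replicate 3 (11.6, others from 11.94), a dim Cyp2c37 probe in replicate 1 (5.15, others up to 4.65), and for replicate 2 in Cyp3a13 (6.04, others from 7.12), Cyp4f13 (10.3, others up to 9.98) and Cyp8b1 (12.93, others up to 12.68).

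In the double knockouts of the liver it held for replicate 3 in Cyp27a1 (11.42, others from 11.54), Cyp4a12b (11.55, others up to 11.04) and Cyp4v3 (12.12, others up to 11.66), for replicate 2 in the dim Cyp2c37 probe (5.38, others up to 4.82) and in Cyp2d40 (9.76, others from 9.94), and for replicate 4 in Cyp4b1 (6.06, others up to 5.52). In the liver of the wild types of cohort 2 it held for Cyp2a5 in replicate 4 (6.22, others from 6.44), Cyp2c29 in replicate 1 (9.18, others up to 8.45) and Cyp2u1 in replicate 2 (6.23, others up to 5.77). Several of these gaps are small on the log2 scale, because the 3 other arrays lay close together.

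In the thymus, replicate 1 of the wild types of cohort 1 stood apart in Cyp3a11 (9.02, others up to 4.46) and in Cyp2c70 (8.51, others up to 4.38), and replicate 3 of the Hmgn2 knockouts in Cyp3a11 (6.17, others up to 4.63). The hepatocyte gene Apoa1 was highest on the same 2 arrays, and its part in the P450 values was not tested.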

How the results depend on the processing

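Over all alternatives run, 0 P450 probes were called in the liver of either mutant, in the difference between the mutants and in their mean change, and in the brain and spleen of either mutant, with each array left out in turn too. Of 42 values of single probes, 0 changed direction in 1190 recomputations, and 45 of the recomputations passed the threshold. These values were picked for a small p or a call in the same data, so that a steady direction was likely beforehand. The wild types in the liver gave 1 called probe, Cyp4f14, without background correction, without the filter, with the stricter filter, with 1 probe a gene and with a trended robust prior, 4 with array weights (Cyp39a1, Cyp3a13, Cyp4f13 and Cyp4f14), and 0 to 1 with 1 array left out. The wild types in the brain gave 0 with the stricter filter and with the 8 arrays of the comparison alone, and 0 to 1 with 1 array left out. The thymus mean change gave 2 with median scaling, 0 without the filter and 0 without the 2 arrays with hepatocyte genes, and 0 to 3 with 1 array left out. The Hmgn2 knockout in the thymus gave 0 to 1 with 1 array left out: Cyp4f16 without replicate 2 and Cyp1b1 without replicate 4 of the knockouts. The probes highest in liver numbered 50 with any wild-type array left out and 37 to 60 otherwise. The cause of these shifts was not tested.

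With the replicate number as a block, 0 probes were called in the brain wild types and 0 in the thymus mean change, where 1 and 1 were called without it, and the block changed no other count of calls. Equal numbers did not pair the mice: after removal of group means their correlations ran from -0.605 to 0.614, and in no comparison were all 4 above 0.1. With 4 mice a group and probes near background, changes in dim members such as Cyp17a1, Cyp26a1 and Cyp4f18 are bounded only loosely.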
